A study of Homo sapiens with 8 samples.

Results

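Constant H3K23su regions lacking H3K27ac are stretches of the genome that carried a peak of succinylated histone H3 lysine 23 (H3K23su) in every H3K23su library of HCT15 colorectal cancer cells and no overlapping peak of acetylated histone H3 lysine 27 (H3K27ac) in any H3K27ac library. Both marks were profiled by CUT&Tag, in which an antibody brings the Tn5 transposase to the modified nucleosome so that nearby DNA is cut and sequenced. Merging the overlapping or touching peaks of the 4 H3K23su lists gave 122500 regions. Of these, 29230 held a peak in all 4 H3K23su lists and are called constant here, and 620 of the constant regions overlapped no peak of the 4 H3K27ac lists by even 1 bp. The 620 regions, called members below, were thus selected on the presence and absence of peaks, and made up 2.12% of the constant regions (exact 95% binomial interval 1.96 to 2.29%, counting error only) and 0.506% of all merged regions.

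The study compared parental HCT15 cells (HCT15-Pa, labelled as treated with DMSO) with 5-fluorouracil (5-FU)-resistant cells (HCT15-FR, labelled with 5-FU at 20 μg/ml), with 2 libraries per line and mark and 8 peak lists in all. HCT15-FR is a single resistant line that had been kept in 5-FU and, per the study's methods, was moved to drug-free medium for 3 days before experiments, so that the line, its selection and its drug history cannot be told apart. No source used here says that the libraries of a group came from separate cultures, so an SD over libraries measures only the spread between these libraries, which may be technical. The lists held 65364 to 76676 peaks each. They give no reads, so depth is unknown, and a region without a peak may still hold signal below the caller's threshold.

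Histone succinylation places a bulky, negatively charged acyl group on lysine, is supplied by succinyl-CoA and can be deposited by some of the enzymes that also acetylate histones. H3K27ac marks active promoters and enhancers. The 2 marks usually lie together: 23454 of the constant H3K23su regions (80.2%) overlapped an H3K27ac peak in all 4 lists, and are called regions of both marks here. A further 2561 regions had H3K27ac in 3 lists, 1763 in 2 and 832 in 1, and these 5156 are called mixed regions. The number of regions thus rose with each further H3K27ac list. The 832 regions with a single H3K27ac list were spread over the libraries, with 202 and 207 from the 2 HCT15-Pa lists and 190 and 233 from the 2 HCT15-FR lists.

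Some members lay in introns of genes with an acetylated start. As examples chosen from 6 such pairs, for 2 high-ranking intronic members whose host gene had a region of both marks just upstream of its transcription start site (TSS), the central 150 bp of the member are shown with the 150 bp before the gene's annotated start, all as the plus strand of hg19 and with each CpG in capitals. The members lay in MAN2A1, a Golgi mannosidase (chr5:109075857-109076006 and, upstream of its start, chr5:109025478-109025627), and DNAJC10, a chaperone of the endoplasmic reticulum (chr2:183624633-183624782 and chr2:183580832-183580981).
MAN2A1 intron: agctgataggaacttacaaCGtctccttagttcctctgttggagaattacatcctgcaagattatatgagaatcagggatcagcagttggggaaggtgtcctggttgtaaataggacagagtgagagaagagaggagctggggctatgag
MAN2A1 upstream of the TSS: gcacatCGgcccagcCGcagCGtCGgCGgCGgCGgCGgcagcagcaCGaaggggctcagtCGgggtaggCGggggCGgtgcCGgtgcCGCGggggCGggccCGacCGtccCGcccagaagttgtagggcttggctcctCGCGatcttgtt
DNAJC10 intron: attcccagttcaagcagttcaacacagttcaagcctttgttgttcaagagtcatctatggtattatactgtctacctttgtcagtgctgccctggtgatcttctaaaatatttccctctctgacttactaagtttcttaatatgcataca
DNAJC10 upstream of the TSS: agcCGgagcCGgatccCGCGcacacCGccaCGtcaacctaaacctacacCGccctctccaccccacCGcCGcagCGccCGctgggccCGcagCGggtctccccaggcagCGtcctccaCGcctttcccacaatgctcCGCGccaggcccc
The MAN2A1 and DNAJC10 members held 1 and 0 CpGs in these stretches, and the matching upstream stretches held 21 and 17, a difference between an intronic and a promoter position. In HCT15-Pa the MAN2A1 member (chr5:109075486-109076378) scored 4.45 and 5.98 and in HCT15-FR 5.45 and 4.82, as −log10 P of the peak. The DNAJC10 member (chr2:183624414-183625001) scored 5.26 and 4.79 in HCT15-Pa and 4.55 and 5.09 in HCT15-FR, so the scores of the lines overlapped at both. As the mean percentile of the score within its own list, the MAN2A1 member stood at 69.2 in HCT15-Pa and 63.0 in HCT15-FR. The DNAJC10 member stood at 69.2 in HCT15-Pa and 56.1 in HCT15-FR.

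H3K23su at the members was weak. The authors' score of a peak is MACS2's −log10 P, and the members' median score (strongest peak of a library in the region) was 4.19 and 4.16 for HCT15-Pa and 4.11 and 4.10 for HCT15-FR, where the lowest score of any H3K23su peak was 3.0 to 3.07 per list. The regions of both marks had medians of 5.38, 5.37, 6.16 and 6.15 in the same order, and the mixed regions 4.35, 4.36, 4.56 and 4.58. The strongest member in each library scored 9.54, 7.98, 8.08 and 10.1, whereas regions of both marks reached 260 to 359.

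As a rank within its own list, which removes differences between lists in overall score, the members' median percentile was 43.6 and 42.1 in HCT15-Pa and 35.1 and 34.1 in HCT15-FR. It was 49.9 to 50.2 for the mixed regions and 76.6 to 79.3 for the regions of both marks. Between 58.5% and 71.0% of the members lay below the median of the list, depending on the library. The score and the presence of 4 peaks come from the same readout, so these values describe the members and are not tested.

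**Figure D1:**
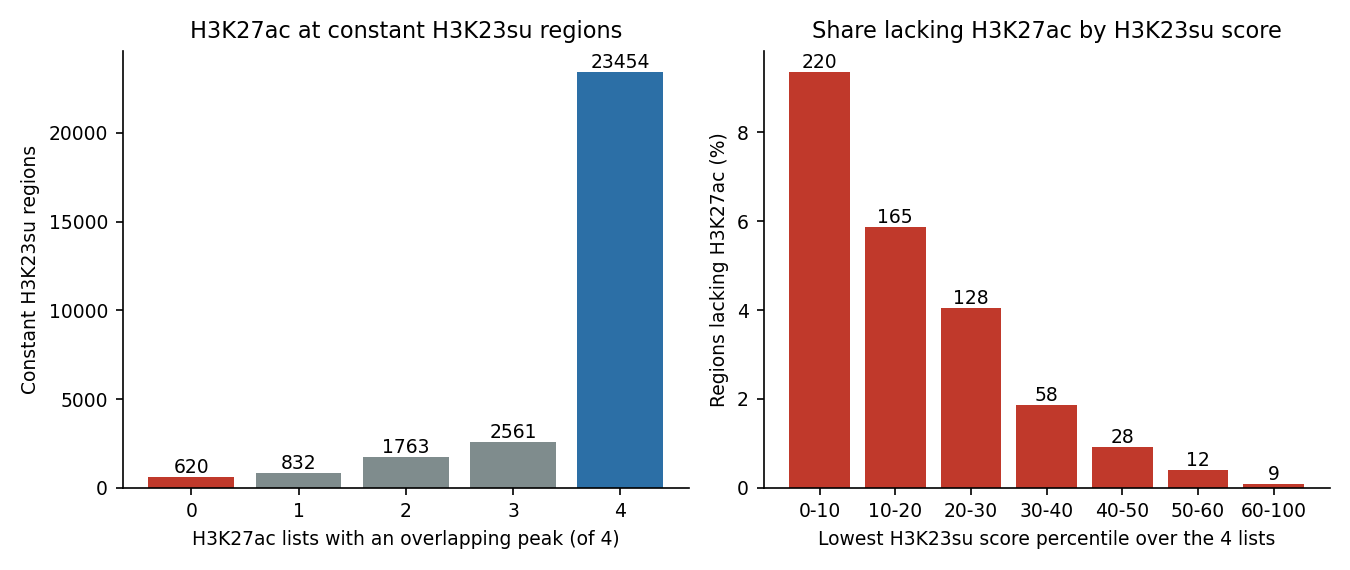
Left, number of constant H3K23su regions (y axis) by the number of H3K27ac lists with an overlapping peak (x axis). Right, percentage of constant regions lacking H3K27ac (y axis) by the lowest H3K23su score percentile over the 4 lists (x axis), with the number of members above each bar; the share falls from 9.37% in the weakest class to 0.0772% in the strongest.

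The share of constant regions that lacked H3K27ac fell with each step of the H3K23su score. Ranked by the lowest of a region's 4 percentiles, 220 of 2349 constant regions (9.37%) lacked H3K27ac where that value was at most 10, 165 of 2812 (5.87%) between 10 and 20, 128 of 3165 (4.04%) between 20 and 30, and 9 of 11659 (0.0772%) above 60. The median of this lowest percentile was 15.1 for members, 23.2 for mixed regions and 58.9 for regions of both marks. Most members therefore had at least 1 library in which the H3K23su peak ranked low in its list.

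The 4 peaks of a member did not always cover the same base. In 440 members (71.0%) at least 1 bp was covered by all 4 libraries, over a median of 128 bp, compared with 82.8% of mixed regions and 96.4% of regions of both marks. In the other 180 members the peaks were linked only through one another when merged. Members with and without a shared base were alike in position, with 74.5% and 78.3% in introns and a median GC content of 48.6% and 47.6%. Merged members were 236 to 1818 bp wide with a median of 695.5 bp, against 833 bp for mixed regions and 1154.5 bp for regions of both marks.

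The number of members depended on how presence was defined. Requiring each library's peaks to cover 50% of the merged region left 88 members, and using only the stronger 50% of each of the 8 lists left 223. Dropping an H3K23su library gave 1063 without HCT15-Pa 1, 1089 without HCT15-Pa 2, 1063 without HCT15-FR 1 and 1062 without HCT15-FR 2, because fewer lists had to agree.

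Next, the members were placed in the genome with GENCODE annotation on hg19, by the midpoint of the region. Introns held 469 of the 620 members (75.6%), against 66.7% of mixed regions and 40.5% of regions of both marks. Promoter TSSs (1 kb upstream to 100 bp downstream of any annotated TSS) held 47 members (7.58%), against 9.10% and 35%. Intergenic DNA held only 29 (4.68%), against 13.9% and 13.8%, and the remaining members lay at transcription termination sites (TTSs, 45) or in exons (30).

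**Figure D2:**
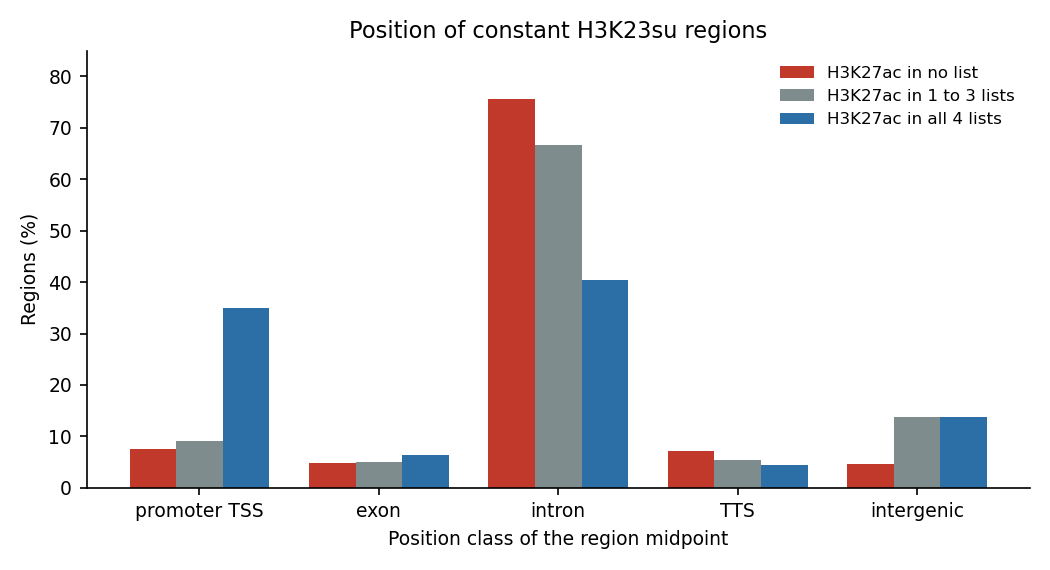
Percentage of regions (y axis) whose midpoint fell in each position class (x axis) for the 620 members (H3K27ac in no list), 5156 mixed regions (1 to 3 lists) and 23454 regions of both marks (all 4 lists). Introns hold 75.6% of the members, and intergenic DNA holds 4.68%.

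Counted over individual peaks in each H3K23su library, the intron share of member peaks was 75.5% and 75.2% in HCT15-Pa and 75.2% and 74.8% in HCT15-FR. For regions of both marks it was 39.6%, 39.7%, 40.5% and 40.2%, a mean difference of 35.2 percentage points. The promoter TSS share of member peaks was 7.58% and 7.44% in HCT15-Pa and 8.16% and 8.54% in HCT15-FR, a mean difference of −27.6 percentage points from regions of both marks and −1.31 from mixed regions. Each region has a peak in all 4 lists by the rule, so the libraries read the same regions again and are no independent replicates of a position or a sequence. Position, host gene and sequence are therefore described here with no test.

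Since promoters carry strong peaks and members are weak, the positions were also read within classes of equal H3K23su score. Among constant regions with a lowest percentile of at most 10, introns held 73.6% of the 220 members, 64.9% of mixed regions and 48.5% of regions of both marks. Promoter TSSs held 6.36%, 11.1% and 18.4%, and intergenic DNA 5.45%, 12.1% and 19.5%. Between 20 and 30, introns held 80.5% of the 128 members, 65.0% of mixed regions and 47.3% of regions of both marks. The intron share of the members was above that of regions of both marks in each of the 7 score classes, the strongest of which held 9 members. It was below that of mixed regions between 40 and 50 (64.3% and 69.3%) and above 60 (66.7% and 68.1%). The promoter share of the members was above that of mixed regions between 30 and 40 (12.1% and 7.06%), between 40 and 50 (10.7% and 7.29%) and between 50 and 60 (25% of 12 members and 9.55%).

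Most members lay within protein-coding genes. This held for 558 of the 620 members, 76.0% of mixed regions and 71.9% of regions of both marks, and the mean difference between members and regions of both marks was 18.0 percentage points over peaks in the 4 libraries. With the stronger 50% of the lists that difference was 4.1 percentage points, and with each library covering 50% of the region it was 10.8. Members occurred in 560 of 20163 protein-coding genes, counting each gene whose ends enclose a member midpoint, so that 2.78% of such genes held one. The host genes were long, with a median length of 102612 bp against 27219 bp for all protein-coding genes. Long hosts were shared by the other constant regions. Over regions more than 2 kb downstream of their host's 5′ end, median host length was 115973 bp for members. It was 127641 bp for mixed regions and 104598.5 bp for regions of both marks.

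The host genes mostly carried acetylated start sites. Of the 533 members more than 2 kb downstream of the 5′ end of their host gene, 463 (86.9%) had an H3K27ac peak in all 4 lists within 2 kb of that end, and 39 (7.32%) had none in any list. The corresponding shares with H3K27ac in all 4 lists were 79.8% for mixed regions, 70.3% for regions of both marks and 57.0% of all protein-coding genes. Over member peaks in the 4 libraries the share lay 7.06 percentage points above mixed regions and 16.7 above regions of both marks. H3K23su was present at the host start site in all 4 lists for 450 of the 533 members (84.4%). Whether the host genes were transcribed was not analysed here.

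The counts were also read at similar gene length. Among protein-coding genes of 100 to 300 kb, 196 of 1706 with H3K27ac at the TSS in all 4 lists held a member (11.5%), compared with 16 of 787 with H3K27ac in none (2.03%). Per megabase these genes held 0.781 and 0.121 members, and 20.7 and 6.27 constant regions of any kind. Among genes longer than 300 kb the values were 48 of 294 (16.3%) and 7 of 402 (1.74%), or 0.456 and 0.0280 members per megabase. In each of the 5 length classes the density of members was higher in genes with an acetylated TSS, and so was that of all constant regions. Under 10 kb the densities with and without acetylation were 1.20 and 0.246 members and 129 and 7.26 constant regions per megabase. Above 300 kb the constant regions stood at 11.2 and 1.92 per megabase.

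**Figure D3:**
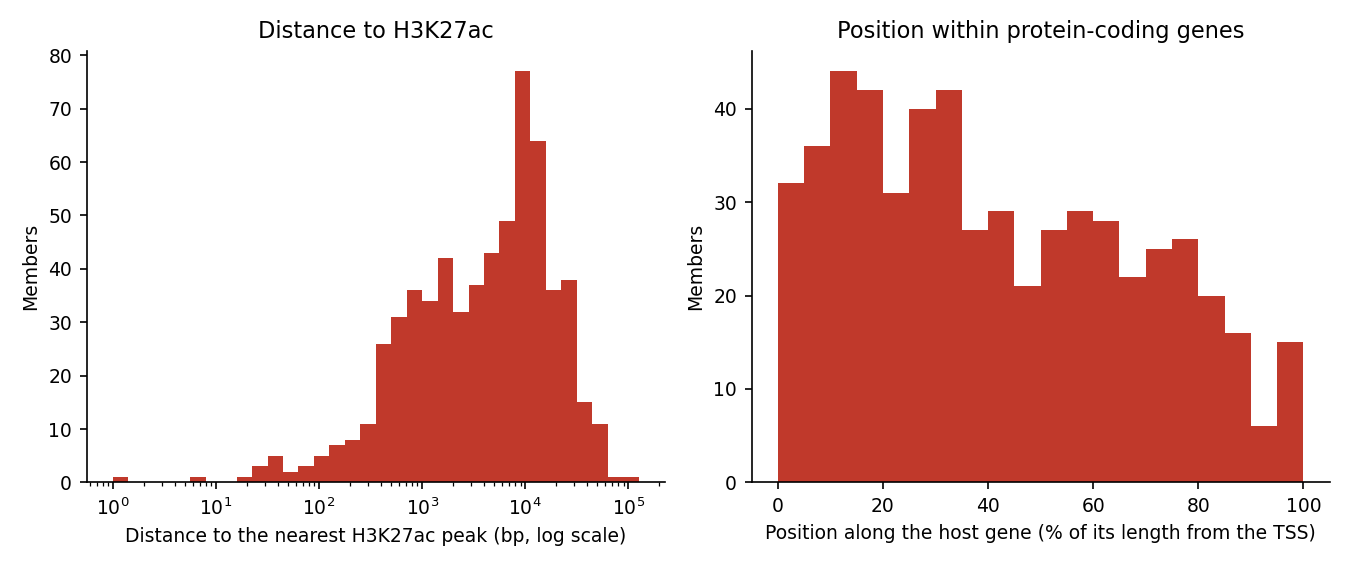
Left, number of members (y axis) by the distance in bp from the region edge to the nearest H3K27ac peak of any list (x axis, log scale), with a median of 5055 bp. Right, number of members (y axis) by position along the host protein-coding gene, in percent of gene length from the TSS (x axis), with a median of 37.1%.

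Along the gene, members occurred from end to end with more of them in the 5′ part. The median position was 37.1% of gene length, with quartiles of 18.1% and 63.2%. For members beyond 2 kb the median distance from the host TSS was 37829 bp, and the middle of the distribution spanned 15410 to 83829 bp. The nearest H3K27ac peak of any list lay at a median of 5055 bp, within 1 kb for 140 members (22.6%), within 10 kb for 430 (69.4%) and at most 103022 bp away. The rule itself excludes overlap with H3K27ac, and no such distance was taken for other sites without an H3K27ac peak. These distances therefore describe the members only.

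At the border of the rule, the 3 members closest to an H3K27ac peak lay 1 bp away at BCL6, a transcriptional repressor (chr3:187461612-187462856), 6 bp away in IFRD1 (chr7:112063835-112064656) and 16 bp away in LRBA (chr4:151895499-151896119). Just outside it were constant regions whose largest overlap with an H3K27ac peak was 26 bp, in NBEAL1 (chr2:203936477-203936787) and in EIF3E on chromosome 8, and 30 bp in TTC6 (chr14:38247392-38248076). In all, 73 members lay within 500 bp of an H3K27ac peak, and 547 remained when such regions were left out.

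In sequence, the members were AT-richer and poorer in CpG than other constant regions. In the 400 bp around the midpoint the median GC content was 48.25% for members, 51.0% for mixed regions and 58.75% for regions of both marks, and the median number of CpGs was 3, 5 and 12. Measured over peaks, median GC was 48.5% in both HCT15-Pa libraries and 48.75% in both HCT15-FR libraries, a mean difference of −10.3 points from regions of both marks and −2.62 from mixed regions. Among regions with a lowest percentile of at most 10, the medians were 48.5% for members and 55.25% for regions of both marks.

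GC-box and ETS letters were found in a smaller share of members than of regions of both marks. Motif letters were searched on both strands in the same 400 bp. GGGCGG, the GC box read by SP and KLF factors, was found in 68 members (11.0%), 14.5% of mixed regions and 41.3% of regions of both marks. The ETS letters CCGGAAG were found in 8 members (1.29%), 1.61% and 7.52%. AAGATGGCG (YY1), TGACGTCA (the cAMP response element), ACTACAATT (ZNF143) and the CTCF core were found in no member, but all 4 were also rare in regions of both marks (1.05%, 0.712%, 0.179% and 0.243%).

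The AP-1 site TGACTCA, bound by FOS and JUN family factors, was found in 53 members (8.55%), 13.7% of mixed regions, 14.0% of regions of both marks and 13.9% of all constant regions. Over peaks, the members' share was 9.48% and 10.3% in HCT15-Pa and 9.42% and 9.65% in HCT15-FR, a mean difference of −4.75 percentage points from regions of both marks and −3.59 from mixed regions. The difference from regions of both marks was −1.51 points with the stronger 50% of each list, −2.68 points where each library had to cover 50% of the region, and −1.52 points in 100 bp windows. At a lowest percentile of at most 10, the site was in 8.18% of members, 13.6% of mixed regions and 18.7% of regions of both marks. Between 20 and 30 the shares were 10.2%, 13.5% and 19.6%. The members' share was below that of regions of both marks in each score class except 50 to 60 (16.7% of 12 members and 16.6%). For other letters the shares of members, mixed regions and regions of both marks were 7.10%, 8.79% and 5.94% for FOX (TGTTTAC), 4.19%, 6.81% and 4.05% for GATA factors (AGATAAG) and 5.65%, 6.81% and 5.94% for TEAD (ACATTCC). They were 3.39%, 5.53% and 3.44% for CDX (TTTATGG), 9.84%, 9.25% and 10.3% for NFY (GCCAAT), and 0.968%, 1.22% and 0.951% for HNF4 (CAAAGTCCA). Except for NFY, the members' share was below that of mixed regions for each of these letters. REST letters (TTCAGCACC) occurred in 6 members (0.968%), 0.562% of mixed regions and 0.588% of regions of both marks. NRF1 letters (GCGCATGCG) occurred in 1 member (0.161%), 0.0776% of mixed regions and 0.802% of regions of both marks. Both counts of members are small.

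As examples of the AP-1 letters, 4 high-ranking members were chosen among those in introns, in BMP8A, a bone morphogenetic protein gene (chr1:39985074-39985120), USP32, a deubiquitinase (chr17:58450240-58450286), DDAH1, an enzyme that breaks down dimethylarginine (chr1:85917309-85917355), and NFKB1, which encodes an NF-κB subunit (chr4:103507237-103507283). Each site is shown in capitals with 20 bp on either side, on the plus strand of hg19; TGAGTCA is the same site read on the other strand.
BMP8A: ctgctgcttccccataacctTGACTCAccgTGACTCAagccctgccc
USP32: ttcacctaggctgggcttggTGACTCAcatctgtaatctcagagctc
DDAH1: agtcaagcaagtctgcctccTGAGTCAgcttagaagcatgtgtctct
NFKB1: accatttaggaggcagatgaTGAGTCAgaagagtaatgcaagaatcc
The NFKB1 member scored 3.83 and 4.05 in HCT15-Pa and 4.54 and 4.29 in HCT15-FR. The BMP8A member scored 5.57, 5.19, 6.18 and 4.59 in the same order, and only 6.25% of the 24-letter words in its window occurred once in the genome.

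Repeated sequence limited some members. In the 400 bp window, a mean of 84.8% of 24-letter words were single-copy in the genome, against 88.3% in mixed regions and 90.4% in regions of both marks. Most words were single-copy in 545 members (87.9%), the median word had more than 10 copies in 23 members, and 44 members lay within 500 kb of an assembly gap. The part of repeats in the missing H3K27ac peaks was not tested.

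Among the 10 members with the highest lowest percentile, 9 lay in 9 different protein-coding genes, each with H3K27ac at the TSS in all 4 lists. The highest was in the first kilobases of RNF139, an endoplasmic reticulum ubiquitin ligase on chromosome 8, with scores of 6.03 and 5.72 in HCT15-Pa and 6.02 and 5.88 in HCT15-FR, 476 bp from H3K27ac. Its scores were nearly level over the 4 libraries. The member in MAGI3, a junctional scaffold protein gene (chr1:113976731-113977314), lay 43886 bp from its start and 10073 bp from H3K27ac, with scores of 5.29 and 5.36 in HCT15-Pa and 7.48 and 5.65 in HCT15-FR.

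Intronic members of TRAM1, on chromosome 8, CHPT1 and ZNF678 followed these. The TRAM1 member scored 5.82 and 5.16 in HCT15-Pa and 5.89 and 6.23 in HCT15-FR. CHPT1, which makes phosphatidylcholine, held one at chr12:102100938-102101513 with scores of 5.66, 5.11, 5.85 and 6.52 (HCT15-Pa 1, HCT15-Pa 2, HCT15-FR 1, HCT15-FR 2), and a weaker one 16573 bp from its start. The zinc finger gene ZNF678 held one at chr1:227766859-227767886 with scores of 5.17, 5.51, 5.39 and 6.55. The scores of the lines overlapped at RNF139 and ZNF678, and both HCT15-FR scores lay above both HCT15-Pa scores at MAGI3, TRAM1 and CHPT1. As percentiles the lines overlapped at MAGI3, TRAM1, CHPT1 and ZNF678, while at RNF139 the HCT15-FR percentiles (77.6 and 75.7) lay below those of HCT15-Pa (85.7 and 81.9). The other members of this rank were at SLC35E4 and DYM (TTSs of annotated transcripts), the splicing factor gene TRA2B (exon), the transcription factor gene UBP1 (intron, where HCT15-Pa gave 4.60 and 7.97), and a non-coding intron 25368 bp from the nearest TSS, that of GRAMD2B.

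Of the 10 promoter members with the highest lowest percentile, 9 lay between the ends of a protein-coding gene model and more than 1 kb from its 5′ end. Their nearest annotated starts were those of OGG1, UPK3BL2, KCTD2, VPS13A, CDC42, FAM204A, SRPK1, TTC17 and PECR. At UPK3BL2 and CDC42 the enclosing model was a separate unnamed one (ENSG00000270249 and ENSG00000289694). The starts of lower-ranked promoter members were not sorted in this way. OGG1, the 8-oxoguanine DNA glycosylase, had its member 1054 bp into the gene and 103 bp from H3K27ac (chr3:9792507-9792856; scores 5.57 and 4.8 in HCT15-Pa, 4.72 and 4.99 in HCT15-FR). CDC42, a small GTPase gene, had one 81 bp from an annotated start (chr1:22402633-22403183; 4.79, 4.14, 5.55 and 4.42). TTC17 had one 34 bp from an internal start, 91252 bp into the gene and 38876 bp from H3K27ac (chr11:43471582-43471862; 4.59, 4.06, 4.27 and 4.52). The score ranges of the lines overlapped at CDC42, TTC17 and OGG1, while as percentiles HCT15-FR (54.5 and 60.4) lay below HCT15-Pa (79.9 and 63.9) at OGG1.

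The remaining promoter member of the 10 belonged to the long non-coding RNA gene LINC00511, 97 bp from an annotated start and 7967 bp from the nearest H3K27ac peak (chr17:70484433-70485635). It scored 4.77 and 5.88 in HCT15-Pa and 4.81 and 6.03 in HCT15-FR. Its central 100 bp (chr17:70484984-70485083, plus strand, hg19, CpG in capitals) are shown as an example of a start-site member. They held 1 CpG, while the 400 bp window of this member held 7, above the median of 3 over all members.
LINC00511: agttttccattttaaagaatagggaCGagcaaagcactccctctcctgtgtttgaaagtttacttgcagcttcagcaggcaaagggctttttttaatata
GC content was 39% in this stretch. At UPK3BL2 none of the 24-letter words in the window were single-copy, so reads there could belong to several copies.

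The comparison of the lines asks whether H3K23su without H3K27ac changed with 5-FU resistance. The members' median percentile was 42.8 ± 1.07 in HCT15-Pa and 34.6 ± 0.770 in HCT15-FR (SD, n = 2 libraries each), a difference of −8.22 points with no overlap of the libraries. Regions of both marks moved the other way, from 76.8 ± 0.200 to 79.1 ± 0.224, and mixed regions stood at 50.0 ± 0.133 and 50.1 ± 0.124. The gap between members and regions of both marks was 10.6 percentile points larger in HCT15-FR, and the gap to mixed regions 8.33 points larger. A percentile is relative to the other peaks of its list, whose median score was 4.35 and 4.36 in HCT15-Pa and 4.56 and 4.58 in HCT15-FR. As scores, the members' medians averaged 4.18 in HCT15-Pa and 4.10 in HCT15-FR, and those of regions of both marks 5.37 and 6.15. The fall in percentile is therefore not a fall of like size in score. Score and width come from the peaks that chose the members, so the lines are described with no test. The choice of H3K27ac lists moved the values: the members' percentile difference was −10.3 and −10.1 points without HCT15-Pa H3K27ac 1 or 2, and −6.78 and −6.33 without HCT15-FR H3K27ac 1 or 2.

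**Figure D4:**
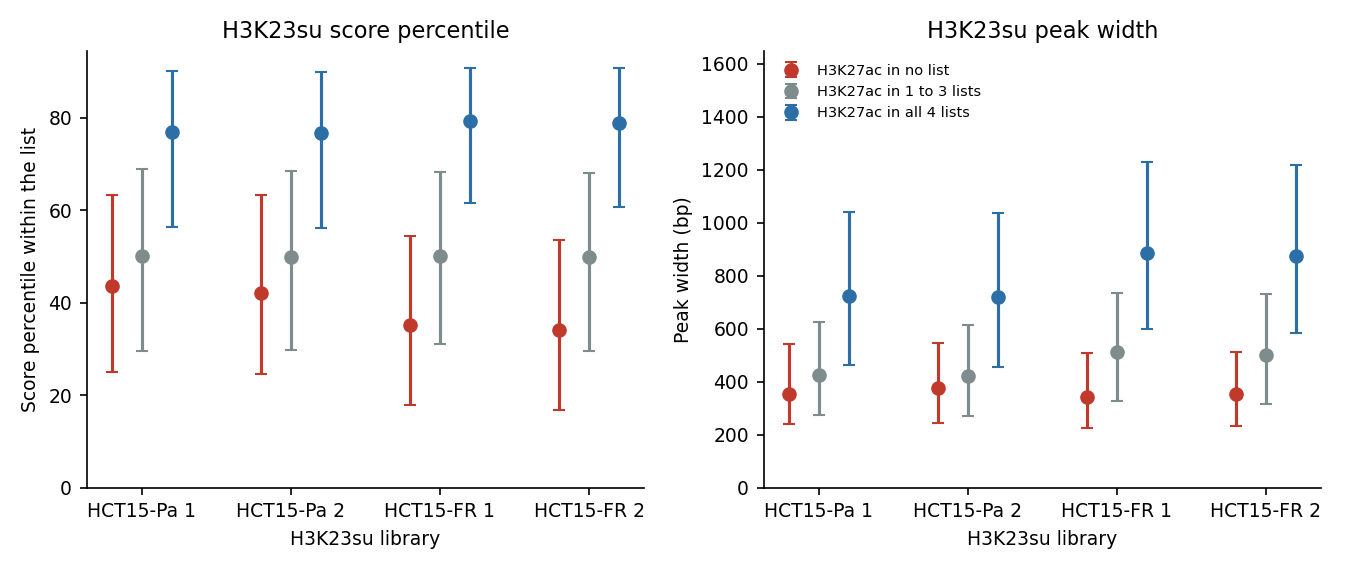
Median H3K23su score percentile (left y axis, 0 to 100) and peak width in bp (right y axis) of the strongest peak per region in each H3K23su library (x axis), for the members (no list), mixed regions (1 to 3 lists) and regions of both marks (all 4 lists); bars span the quartiles over regions. Members lie lowest in every library, and their width stays between 343 and 375 bp while regions of both marks widen from 724 to 880.5 bp.

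Peak width was compared in the same way. The members' median peak width was 354.5 and 375 bp in HCT15-Pa and 343 and 353.5 bp in HCT15-FR, or 365 ± 14.5 and 348 ± 7.42 bp (SD, n = 2 each), a difference of −16.5 bp. Regions of both marks measured 724 ± 2.83 bp in HCT15-Pa and 880.5 ± 6.36 bp in HCT15-FR, and mixed regions 423 ± 2.12 and 506 ± 7.07 bp. The difference at the members was close to the SD of the HCT15-Pa libraries, and its sign changed to 2 bp wider in HCT15-FR without HCT15-Pa H3K23su 1, 14 bp wider without HCT15-Pa H3K23su 2, and 4 or 5 bp wider without HCT15-FR H3K27ac 1 or 2. Without HCT15-Pa H3K27ac 1 or 2 it was −22.5 and −33.5 bp. With the stronger 50% of each list, members were 103.5 bp wider in HCT15-FR. The difference of differences against regions of both marks was −173 bp.

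Counted one by one, 163 members (26.3%) had a percentile in both HCT15-FR lists below both HCT15-Pa lists, against 18.5% of all 29230 constant regions. In the other direction, 69 members (11.1%) were above in both HCT15-FR lists, against 25.4% of all constant regions. For width, 100 members (16.1%) were wider in both HCT15-FR lists, against 36.9%, and 121 (19.5%) were narrower, against 10.7%. Among the weakest constant regions (lowest percentile at most 10), 30.0% of members, 23.8% of mixed regions and 15.1% of regions of both marks were below in both HCT15-FR lists. Members lay between the other classes from 20 to 30, with 19.5%, 21.4% and 16.9%, and from 30 to 40, with 19%, 21.2% and 16.6%. From 50 to 60 the shares were 16.7% of the 12 members, 22.5% and 16.6%. The share above in both HCT15-FR lists was smallest for members in each score class, with 10.9%, 24.5% and 31.1% in the weakest.

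**Figure D5:**
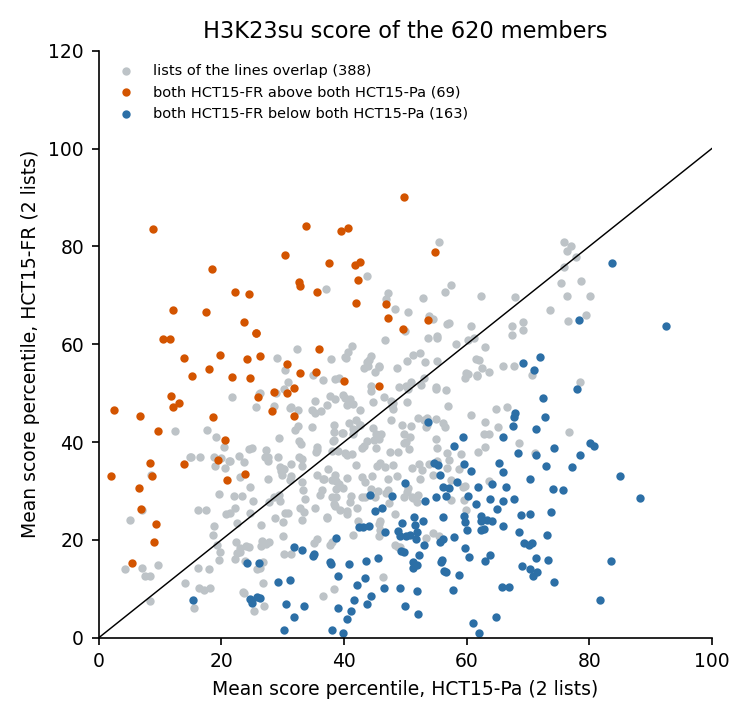
Mean H3K23su score percentile in HCT15-FR (y axis) against HCT15-Pa (x axis) for each of the 620 members, with the line of equality; the y axis runs past 100 only to hold the legend. In 163 members both HCT15-FR lists lie below both HCT15-Pa lists, and in 69 they lie above. Percentiles are relative to the other peaks of a list, so a lower one need not be a lower score.

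The members furthest above in HCT15-FR were in SWT1, an RNA endonuclease gene, at STRADB, a pseudokinase gene, in ZMYM2, near SPRY2, an inhibitor of receptor tyrosine kinase signalling, and in BLTP3B, a lipid transfer protein gene. The SWT1 intronic member (chr1:185199071-185199632) scored 3.56 and 3.34 in HCT15-Pa and 6.51 and 6.72 in HCT15-FR, or percentiles of 13.2, 4.32, 82.7 and 84.3. The BLTP3B member (chr12:100532251-100532525) scored 4.25 and 3.73 against 5.56 and 9.96. They were picked for these differences, so no test is given.

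Furthest below were regions near the start of chromosome 12 (chr12:91588-92460), on chromosome 7 (chr7:152719967-152720319), at MAP3K10, a mixed-lineage kinase gene, and on chromosome 5 in a non-coding intron (chr5:141879772-141880160) and 13852 bp from a TSS of SPRY4, another inhibitor of receptor tyrosine kinase signalling (chr5:141681108-141681897). The MAP3K10 exonic member (chr19:40697713-40698819) scored 5.55 and 4.22 in HCT15-Pa and 3.04 and 3.20 in HCT15-FR, and lay 26 bp from an H3K27ac peak. At the SPRY4 region the scores were 4.19 and 6.10 against 3.24 and 3.38. Of the words in the chromosome 12 window, 16.7% were single-copy.

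Members were scattered over genes and chromosomes. Of the host genes, 523 held 1 member, 31 held 2, 3 held 3 and 3 held 4. The 3 genes with 4 members overlap on chromosome 12 and share the same members: PRH1, a salivary proline-rich protein gene, TAS2R14, a bitter taste receptor gene, and an unnamed gene model (ENSG00000275778). In this stretch 50% to 75% of the words were single-copy, and 4 of its 9 constant regions were members. The third of its members (chr12:11281616-11282216) scored 3.43 and 5.16 in HCT15-Pa and 3.13 and 3.11 in HCT15-FR.

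DST, which encodes the cytoskeletal linker dystonin, held 3 members 374937 to 478561 bp from its annotated start, where H3K27ac was found in 2 lists. Its strongest, chr6:56340503-56341630, scored 6.09 and 3.97 in HCT15-Pa and 4.86 and 4.60 in HCT15-FR. MED13L, a Mediator kinase-module gene with an acetylated start in all 4 lists, also held 3, with scores from 3.41 to 6.75 over members and libraries. The windows of 1 Mb with the most members held 4 on chromosome 12 at 11 Mb, the stretch of PRH1, 3 on chromosome 12 at CHPT1 and GNPTAB, and 3 on chromosome 22 at OSBP2 and SLC35E4, while 430 windows held 1 and 75 held 2. The CHPT1 and OSBP2 windows are among 12 tied at 3 members, ordered by the lowest percentile of their strongest member. By chromosome, members were 0.955% of the constant regions of chromosome 19 and 2.95% of those of chromosome 4.

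Gene groups linked to the study were looked up next. Members occurred in none of 18 genes of 5-FU and pyrimidine metabolism, of which 15 had H3K27ac at the TSS in all 4 lists, in none of 26 AP-1 and KLF factor genes and in none of 29 semaphorin and plexin genes, beside 2.78% of all protein-coding genes, and lists of this size leave such shares imprecise. Among 12 ABC transporter genes, ABCA2, a lipid transporter, held 2 members, one of them 1648 bp into the gene (chr9:139921210-139922228; scores 4.23, 3.88, 4.14 and 4.93 in HCT15-Pa 1, HCT15-Pa 2, HCT15-FR 1 and HCT15-FR 2). Among 24 colon and epithelial identity genes only the receptor gene EPHB2 held one, in an intron, with scores of 6.62 and 3.25 in HCT15-Pa and 3.43 and 3.68 in HCT15-FR.

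Of 23 genes for histone acyl writers and erasers and succinyl-CoA enzymes, 4 held a member (17.4%), beside 2.78% of all protein-coding genes. In this list 3 genes had a member within 2 kb of an annotated TSS, which was true of 139 of all protein-coding genes (0.689%). The genes of this list had a median length of 69643 bp, against 27219 bp for all protein-coding genes, and 20 of the 23 had H3K27ac at the TSS in all 4 lists, against 57.0% of all. Among all genes with H3K27ac at the TSS in all 4 lists, 4.32% of those of 30 to 100 kb and 11.5% of those of 100 to 300 kb held a member. The part of length and acetylation in these counts was not tested, and a list of this size leaves its share imprecise. At HAT1, a histone acetyltransferase gene that overlaps SLC25A12, the member (chr2:172822634-172823023) scored 4.78 and 3.73 in HCT15-Pa and 4.0 and 5.06 in HCT15-FR. At SUCLA2, a succinyl-CoA synthetase subunit gene, the member lay 86992 bp into the gene near an internal start and scored 4.79, 3.85, 4.37 and 3.23. At HDAC2, a histone deacetylase gene, the member scored 3.51, 3.18, 3.65 and 3.59, and 39.6% of its words were single-copy. The acetyltransferase gene CREBBP held one 8011 bp from its start with scores of 4.41, 4.8, 3.91 and 3.60. The HDAC2 member lay 55695 bp from the 5′ end of the gene, which, like that of SUCLA2, carried H3K27ac in all 4 lists.

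Gene families were counted in the same way, beside the 2.78% of all protein-coding genes. No member lay in any of 415 olfactory receptor genes, 66 protocadherin genes, 69 replication-dependent histone genes or 249 zinc finger genes of chromosome 19. H3K27ac was found at the TSS in all 4 lists for 128 of the zinc finger genes and 51 of the histone genes. The same was true of 5 of the protocadherin genes and 1 of the olfactory receptor genes. Median gene lengths were 2076 bp for the olfactory receptors, 107576 bp for the protocadherins, 511 bp for the histones and 25932 bp for the zinc finger genes. Under 10 kb, 0.651% of all genes with an acetylated TSS held a member, and 0.0998% of those with H3K27ac at the TSS in no list. Of 118 developmental factor names, 1 matched, GATAD2B, which was caught by its name and encodes a chromatin repressor subunit and no GATA factor. Of 87 cytosolic ribosomal protein genes, RPL10 held 1. Of 3092 small RNA genes transcribed by RNA polymerase III, 2 pseudogenes had a member within 2 kb, RN7SL141P and RNU6-319P, and the latter member scored 4.08 and 4.27 in HCT15-Pa and 6.12 and 5.82 in HCT15-FR.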

How the data were processed

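CUT&Tag for H3K23su and H3K27ac was analysed in 8 libraries. Per the labels and the study's methods, the authors aligned reads to hg19 with Bowtie2, used SAMtools, called the peaks of each library with MACS2 (broad setting for H3K27ac) and used HOMER 4.10 downstream. The deposited score of a peak is MACS2's −log10 P, and the lists hold only peaks past the caller's threshold. Broad calling joins neighbouring enrichment, which bears on how often the marks overlap.

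From the lists, H3K23su peaks were merged when overlapping or touching, and a mark was present where a peak overlapped by 1 bp. Scores were ranked within each list. Positions used GENCODE 44 (lifted to hg19), with promoters reaching 1 kb before and 100 bp past a TSS, and the host of a region is the longest protein-coding gene enclosing its midpoint. Sequence was read in 400 bp windows, and 24-letter words were counted over the genome. Exact permutation tests over libraries were planned and run, but each region has a peak in all 4 lists by the rule and scores come from the readout that chose the members, so their p-values are not given and classes and lines are described with no test. The intron, intergenic and host gene measures were added after the data had been seen. Named regions were, by rule, the 10 members and 10 promoter members with the highest lowest percentile, those nearest to and just outside the H3K27ac limit, the 5 with the largest difference between lines in each direction, listed genes with a member within 2 kb of a TSS, the 5 genes and 3 windows with most members; CREBBP, EPHB2, RPL10 and the genes chosen for printed sequences fall outside it. Sequences of chromosome 8 and some other regions are not reported here. Members, lists and rules were chosen with earlier results of these data known. Replicate numbers were not taken to pair the libraries. Alternatives included stricter scores, other overlap and merging limits, autosomes only and leaving out each library. Python 3.11.15, pandas 2.3.3, numpy 2.4.6, pysam 0.24.0 and samtools 1.23.1 were used.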

Additional observations from a re-analysis of the deposited data

How the results depend on the processing

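Of 142 values recomputed over 18 settings and the replicate block, 131 kept their direction or, for the count of members, stayed within 1.5 times of 620. The replicate-block values equal the main ones by construction and are counted among the 131. The number of members moved to 223 with the stronger 50% of each list and to 88 where each library had to cover 50% of the region, and lay between 810 and 1089 when single libraries were left out. The difference between lines in members' peak width, −16.5 bp, changed to 103.5 bp with the stronger 50% of each list and ranged from −33.5 to 14 bp without single libraries; the cause was not tested. The percentile difference ranged from −11.3 to −7.57 points over the other settings and from −10.3 to −5.84 without single libraries. With the replicate number as a block, that is, pairing libraries of the same number across lines, the differences were −8.22 percentile points and −16.5 bp. The deviations of same-numbered libraries correlated at −0.00357 over 29230 constant regions. That value cannot show whether same-numbered libraries were handled together, so whether the numbers pair the libraries is not known. Against regions of both marks, promoter share, AP-1, GC content, intron share and gene share kept their direction in every setting run. The CTCF core did so too, but its difference was only −0.134 percentage points. In windows around single peaks it was found in 0 to 0.158% of member peaks per library, too few for its sign to carry weight. The lists hold no reads to weigh signal below the calling threshold, and scores near that threshold limit what the absence of an H3K27ac peak shows.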
